A study of Homo sapiens with 12 samples.

Results

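Transcript levels of 40 genes of DNA replication and S phase were examined on 12 arrays of head and neck cancer cells. The genes encode the replicative helicase and its loaders, the DNA polymerases, the sliding clamp, the enzymes that make deoxynucleotides, histone chaperones, the switch from G1 into S phase, and factors that repair or protect the fork. A gene was taken where a probe set of the array had it as its only symbol, and among several such probe sets the one with the highest mean over the 12 arrays was used. All 40 listed genes were found in this way among 11963 genes on the array, and all 40 were among the 8992 genes that lay above the limit for dim signals, a log2 value of 4.52, on at least 2 arrays.

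The arrays covered the squamous carcinoma lines Fadu, from the hypopharynx, and OECM1, from the oral cavity, and a line labelled Detroit. The sources used here do not say which Detroit line was grown. Every line was measured as parent cells and as an invasion subline, called the subline here, meaning cells collected after passage through Matrigel, a gel of basement membrane proteins, and no drug, allele or time point is named in the labels. Total RNA from 2 samples per group was hybridised to 1 Affymetrix array each, and the deposited values are on the log2 RMA scale. The labels do not say whether the 2 samples of a group were separate cultures, so the p-values cover the spread among these samples alone, and that spread may be technical. The labels name 1 invasion subline per line and do not give the number of rounds of selection.

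Before a cell copies its DNA, the origin recognition complex, CDC6 and CDT1 load the ring-shaped MCM helicase onto origins in G1. At the start of S phase CDC45 and the GINS complex join the MCM ring to make the active helicase, after which DNA polymerase alpha with its primase, polymerases delta and epsilon, and the clamp PCNA copy both strands. Most of these genes are transcribed in late G1 and S phase under the control of E2F factors, and for that reason they are widely used as a measure of how much of a cell population is cycling. In RNA from whole cultures, fewer cells in S phase and less transcript per cell cannot be told apart.

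The arrays labelled Detroit invasion subline stood apart from their labelled parent. Over 8992 genes, which are not independent of each other, their mean profile correlated with that of the Fadu parent at r = 0.961 and with that of the Detroit parent at r = 0.881, against 0.978 between subline and parent in Fadu and 0.972 in OECM1. The 2 averaged arrays correlated with each other at r = 0.853. Against the 2 Fadu parent arrays, replicate 1 alone had r = 0.929 and 0.956, and replicate 2 had 0.905 and 0.868. Against the 2 Detroit parent arrays, replicate 1 had 0.853 and 0.887, and replicate 2 had 0.797 and 0.797. Comparisons with the Detroit invasion subline arrays are therefore given against both parents, and as labelled. Epithelial markers were present throughout, with 6 or 7 of 7 genes above the dim limit on every array. Of 7 fibroblast markers 2 to 5 lay above it, of 5 leukocyte markers 1 to 3, and of 5 endothelial markers at most 1. Summed log2 values of the epithelial markers ranged from 63.3 to 72.8 on the Detroit arrays, from 66.5 to 69.4 on the Fadu arrays and from 55.7 to 58.2 on the OECM1 arrays.

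The largest differences among the 40 genes lay between duplicates, on 2 arrays of invasion sublines. The median log2 value of the 40 genes was 7.69 on replicate 1 of the Detroit invasion subline and 5.73 on replicate 2. In the OECM1 subline it was 6.39 on replicate 1 and 7.50 on replicate 2. The other 8 arrays lay between 7.15 and 8.44, with 7.19 and 8.44 in Detroit parent cells, 7.89 and 8.16 in the Fadu subline, 7.66 and 7.58 in Fadu parent cells, and 7.71 and 7.15 in OECM1 parent cells. Replicate 2 of the Detroit invasion subline and replicate 1 of the OECM1 invasion subline were thus the lowest arrays, while the other array of each pair lay among the rest.

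In the Detroit subline all 40 genes were lower on replicate 2 than on replicate 1. The difference reached at least 2-fold for 34 of them, or 85.0%, where 8.32% of all genes tested were at least 2-fold lower and 10.9% at least 2-fold higher. The median difference was -1.90 on the log2 scale. On replicate 2, 6 genes lay under the dim limit (ORC1, CDT1, CDC45, RFC3, RRM2 and DTL), and CCNE2 lay under it on both arrays. With these values set to the limit the median was -1.83 and 34 genes still differed at least 2-fold. Among the genes above the limit on both arrays the differences ran from -3.63 for MCM7 to -0.32 for E2F1. In the OECM1 subline 39 of 40 genes were higher on replicate 2 than on replicate 1, and 16 of them by at least 2-fold, against 3.27% of all genes. The median difference there was 0.81. With 1 array on each side these differences have no test.

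Replicate 2 of the Detroit invasion subline held the lowest of the 12 values for 31 of 40 genes, or 77.5%, against 13% of all genes tested. Replicate 1 of the OECM1 invasion subline held the lowest value for 4 further genes, or 10%, close to the 8.66% of all genes. It held the next lowest value for 21, a count that was not made over all genes. The root mean square difference between duplicates was 2.17 for the 40 genes against 0.891 for all genes in the Detroit subline, and 1.01 against 0.504 in the OECM1 subline. In the other groups the values for the 40 genes and for all genes lay closer, at 0.780 and 0.581 in Detroit parent cells, 0.409 and 0.424 in the Fadu subline, 0.510 and 0.485 in Fadu parent cells, and 0.739 and 0.750 in OECM1 parent cells. At least 2-fold higher on replicate 2 were 6 of the 40 genes in Detroit parent cells, 0 in the Fadu subline, 3 in Fadu parent cells and 0 in OECM1 parent cells, against 5.05%, 1.68%, 1.13% and 3.8% of all genes. At least 2-fold lower were 0, 0, 0 and 4, against 3.94%, 0.945%, 2.85% and 11.2% of all genes. In the OECM1 subline 0 were at least 2-fold lower on replicate 2, against 2.07% of all genes.

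**Figure D1:**
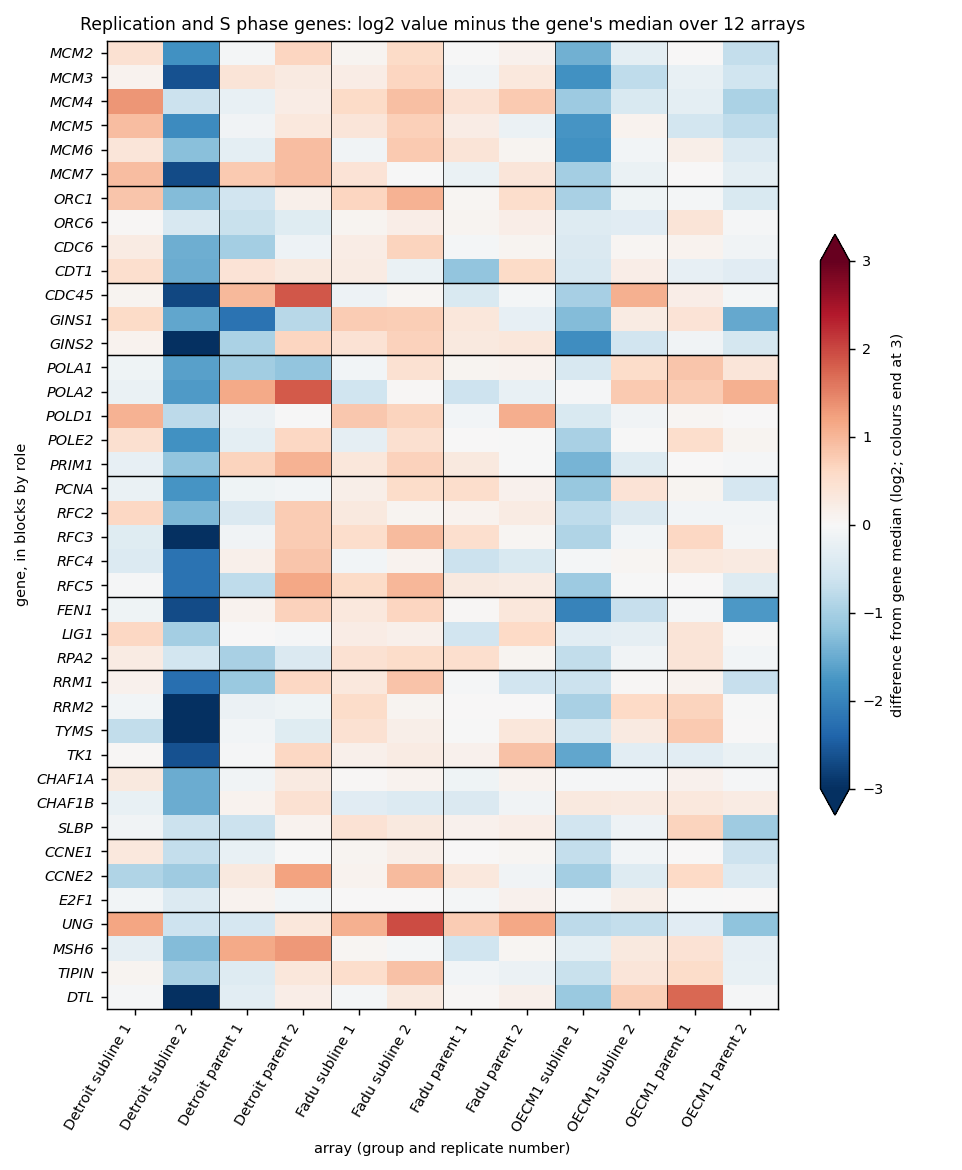
Each row is 1 of the 40 genes, in blocks by role, and each column is 1 of the 12 arrays, with colour giving the log2 value minus the median of that gene over the 12 arrays. The column of Detroit subline replicate 2 is blue in every row (median -1.52), and that of OECM1 subline replicate 1 is blue in 39 of 40 rows (median -0.84).

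A marker of RNA quality did not lie the same way in the 2 low arrays. The log2 difference between the 3′ and 5′ probe sets of ACTB, which rises with degraded RNA, was 0.80 on replicate 2 of the Detroit invasion subline and -0.28 on replicate 1. It was 0.06 on the low replicate 1 of the OECM1 invasion subline and 0.63 on replicate 2. The other 8 arrays ranged from -0.23 to 0.87, both in parent groups. Epithelial markers also differed between the Detroit subline duplicates, and 5 of 7 were at least 2-fold lower on replicate 2 and 1 was at least 2-fold higher. The part of RNA quality and of cell makeup in the low values was not tested.

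Promoter sequences are shown for 5 genes, since genes of this group are textbook targets of E2F factors. The 5 hold the gene with the largest difference between duplicates, 1 with a small difference, 1 helicase gene and both genes that passed a test below. RefSeq sequences on GRCh38.p14, from 250 bases before to 50 after the gene start, were matched by symbol for 36 of the 40 genes. E2F letters were searched as TTTGGCGC, TTTCGCGC, TTTCCCGC and TTTGCCGC on both strands, and matches could overlap. At least 1 match was found for 18 of 36 genes (50%), against 394 of 7315 tested genes (5.39%) and 908 of 27305 promoters (3.33%). The stretches below run from 170 bases before to 30 after the gene start, 5′ to 3′ on the strand of the gene, and capitals mark the E2F letters.
RRM2 promoter: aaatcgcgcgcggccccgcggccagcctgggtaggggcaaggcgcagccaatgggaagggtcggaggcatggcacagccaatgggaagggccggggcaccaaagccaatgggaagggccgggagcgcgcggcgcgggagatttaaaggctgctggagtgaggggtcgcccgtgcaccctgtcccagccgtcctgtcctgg
MCM6 promoter: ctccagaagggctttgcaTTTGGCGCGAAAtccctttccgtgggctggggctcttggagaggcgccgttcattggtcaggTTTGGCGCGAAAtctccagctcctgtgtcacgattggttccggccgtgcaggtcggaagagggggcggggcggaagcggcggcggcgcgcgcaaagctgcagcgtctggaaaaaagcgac
E2F1 promoter: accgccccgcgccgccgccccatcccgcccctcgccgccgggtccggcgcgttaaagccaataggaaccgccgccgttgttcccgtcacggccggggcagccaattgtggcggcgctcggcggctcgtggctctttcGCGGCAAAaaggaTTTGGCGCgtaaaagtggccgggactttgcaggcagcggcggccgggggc
POLA2 promoter: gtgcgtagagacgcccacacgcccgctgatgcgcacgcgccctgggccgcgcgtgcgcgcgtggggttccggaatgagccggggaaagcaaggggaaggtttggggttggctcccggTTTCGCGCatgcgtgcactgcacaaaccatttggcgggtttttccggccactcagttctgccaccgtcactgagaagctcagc
MSH6 promoter: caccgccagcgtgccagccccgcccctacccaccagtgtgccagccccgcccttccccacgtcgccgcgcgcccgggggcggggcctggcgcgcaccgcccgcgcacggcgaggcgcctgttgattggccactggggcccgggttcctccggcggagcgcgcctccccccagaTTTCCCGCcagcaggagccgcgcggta

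RRM2, at chr2:10122569-10122768 on the plus strand, had 0 matches and the largest difference between the Detroit subline duplicates. MCM6, at chr2:135876414-135876613 on the minus strand, had 4 matches that overlapped in 2 runs, which began at positions -152 and -90. E2F1, at chr20:33686356-33686555 on the minus strand, had 2 matches and a difference of -0.32 between those duplicates on the probe set used. POLA2, at chr11:65261792-65261991 on the plus strand, and MSH6, at chr2:47782975-47783174 on the plus strand, had 1 match each, from position -53 and from position 4. Positions count from 1 at the gene start and from -1 before it, and mark the first matched base. The median difference between the Detroit subline duplicates was -2.05 for the 18 genes with a match and -1.83 for the 18 without. Only the spellings named above were searched. A near spelling such as TTTGGCGG, which stands unmarked in the POLA2 stretch, was not counted. The 18 genes without a match are thus not shown to lack E2F sites. A match describes the letters only and shows no bound factor.

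Other letters were counted in the same windows. CCAAT, the box bound by NF-Y, was found on either strand in 58.3% of the 36 promoters and in 36.8% of those of tested genes. TTTGAA, the element of many mitotic genes known as CHR, was found in 2.78% of them, in 9.38% of those of tested genes and in 56.0% of those of 25 G2 and mitosis genes. Matches of different motifs were counted separately where they overlapped. The median GC content of the 36 promoters was 67.8%, against 65.0% over tested genes.

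MCM2 to MCM7 encode the 6 subunits of the helicase ring, and all 6 were at least 2-fold lower on replicate 2 of the Detroit invasion subline than on replicate 1. MCM2 had log2 values of 9.32 and 7.06 on the Detroit invasion subline arrays, replicate 1 first, and 8.82 and 9.52 on the Detroit parent arrays. Its values were 8.96 and 9.44 in the Fadu subline, 8.87 and 9.01 in Fadu parent cells, 7.43 and 8.58 in the OECM1 subline, and 8.87 and 8.15 in OECM1 parent cells. The 2 lowest MCM2 values were those of the 2 low arrays, and subline and parent overlapped in every line.

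MCM6, whose promoter is printed above, had log2 values of 8.68 and 7.08 in the Detroit subline, 8.03 and 9.25 in Detroit parent cells, 8.23 and 9.10 in the Fadu subline, and 8.70 and 8.40 in Fadu parent cells. In OECM1 the values were 6.51 and 8.25 in the subline and 8.50 and 7.92 in the parent. Here OECM1 subline replicate 1 was the lowest of the 12 arrays. Among the helicase genes the difference between the Detroit subline duplicates was largest for MCM7, which was 12.3-fold lower on replicate 2. On OECM1 subline replicate 1 the 6 genes lay between -1.81 and -1.03 from their own medians, and the ring was the role with the lowest median on that array, at -1.61.

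The licensing genes ORC1, ORC6, CDC6 and CDT1 act before S phase. CDC6, an ATPase that helps to load the ring, had log2 values of 7.51 and 5.81 in the Detroit subline and 6.25 and 7.11 in Detroit parent cells. Its values were 7.49 and 7.93 in the Fadu subline, 7.20 and 7.35 in Fadu parent cells, 6.84 and 7.33 in the OECM1 subline, and 7.38 and 7.16 in OECM1 parent cells. Both Fadu subline values lay above both parent values for CDC6, while the groups overlapped in the other lines.

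CDT1, the partner of CDC6 in loading, had log2 values of 6.35 and 4.37 in the Detroit subline, 6.27 and 6.15 in Detroit parent cells, 6.09 and 5.64 in the Fadu subline and 4.67 and 6.43 in Fadu parent cells. OECM1 gave 5.37 and 6.06 in the subline and 5.61 and 5.50 in the parent. Its lowest value, on Detroit subline replicate 2, lay under the dim limit, where RMA compresses differences. ORC6, an origin recognition subunit, was one of the genes with the smallest range over the 12 arrays, from 7.31 to 8.36.

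CDC45 and the GINS subunits turn the loaded ring into an active helicase. CDC45 had log2 values of 7.13 and 4.29 in the Detroit subline, 8.01 and 8.91 in Detroit parent cells, 6.88 and 7.09 in the Fadu subline, and 6.57 and 6.98 in Fadu parent cells. The OECM1 values were 6.05 and 8.10 in the subline and 7.24 and 6.97 in the parent. The Detroit parent held 2 of the 3 highest values of CDC45, and both Detroit subline arrays lay below it.

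GINS1 ran differently, with log2 values of 8.04 and 5.90 in the Detroit subline and 5.25 and 6.63 in Detroit parent cells. It was 8.23 and 8.19 in the Fadu subline, 7.80 and 7.22 in Fadu parent cells, 6.16 and 7.70 in the OECM1 subline and 7.88 and 5.91 in OECM1 parent cells. Its lowest value was on replicate 1 of the Detroit parent, and its Detroit subline replicate 1 value lay among those of Fadu. GINS2 was 9.46-fold lower on Detroit subline replicate 2 than on replicate 1.

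POLA2, the second subunit of DNA polymerase alpha, which starts each new strand with primase, was one of 2 genes that passed the test in Detroit. Its log2 values were 6.80 and 5.30 in the Detroit subline and 8.14 and 8.85 in Detroit parent cells. In Fadu it was 6.42 and 7.04 in the subline and 6.38 and 6.78 in the parent, and in OECM1 6.97 and 7.78 in the subline and 7.76 and 8.08 in the parent. The Detroit subline values lay below both Detroit parent values, and 1 of them lay among the Fadu values.

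POLE2, a subunit of the leading strand polymerase epsilon, had log2 values of 7.26 and 4.96 in the Detroit subline, 6.50 and 7.41 in Detroit parent cells, 6.52 and 7.26 in the Fadu subline, and 6.79 and 6.79 in Fadu parent cells. In OECM1 it was 5.80 and 6.77 in the subline and 7.31 and 6.88 in the parent, and these groups did not overlap. PRIM1, the catalytic subunit of primase, lay lower on both subline arrays than on both parent arrays in Detroit and in OECM1. POLA1 and POLD1, the catalytic subunits of polymerases alpha and delta, ranged from 4.61 to 7.07 and from 6.02 to 7.90 over the 12 arrays.

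PCNA, the ring that holds polymerases on DNA, had log2 values of 8.76 and 7.19 in the Detroit subline, 8.84 and 8.87 in Detroit parent cells, 9.14 and 9.50 in the Fadu subline, and 9.50 and 9.08 in Fadu parent cells. OECM1 had 7.82 and 9.37 in the subline and 9.06 and 8.47 in the parent. The 2 low arrays gave its 2 lowest values.

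RFC4, a subunit of the complex that opens PCNA and loads it, had log2 values of 8.20 and 6.39 in the Detroit subline and 8.76 and 9.44 in Detroit parent cells. It was 8.51 and 8.69 in the Fadu subline, 7.95 and 8.15 in Fadu parent cells, 8.54 and 8.66 in the OECM1 subline and 8.92 and 8.88 in OECM1 parent cells. RFC4 hardly differed between the OECM1 subline duplicates, unlike most of the 40 genes. The other loader subunits RFC2 and RFC5 were 3.90-fold and 4.53-fold lower on Detroit subline replicate 2 than on replicate 1. RFC3 lay under the dim limit on replicate 2 and was at least 4.99-fold lower, counted from that limit.

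FEN1, the nuclease that trims Okazaki fragments, had log2 values of 8.12 and 5.58 in the Detroit subline, 8.37 and 8.94 in Detroit parent cells, 8.57 and 8.89 in the Fadu subline, and 8.30 and 8.58 in Fadu parent cells. OECM1 gave 6.26 and 7.57 in the subline and 8.21 and 6.54 in the parent. FEN1 was thus low on 1 array of the OECM1 parent as well as on the 2 low subline arrays. LIG1, which seals the fragments, ranged from 5.28 to 6.92, and RPA2, a subunit of the single-strand binding complex, from 4.97 to 6.50.

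The genes of nucleotide supply lay lowest of all roles on Detroit subline replicate 2, with a median of -3.30 from their own medians. RRM2, the small subunit of ribonucleotide reductase, which makes deoxynucleotides and limits their supply, had log2 values of 9.20 and 4.21 in the Detroit subline. Its values were 9.11 and 9.15 in Detroit parent cells, 9.85 and 9.37 in the Fadu subline, 9.30 and 9.31 in Fadu parent cells, 8.31 and 9.89 in the OECM1 subline, and 9.95 and 9.27 in OECM1 parent cells. RRM2 lay under the dim limit on Detroit subline replicate 2, and counted from that limit it was at least 25.7-fold lower there than on replicate 1, which lay 0.07 above the Detroit parent mean on the log2 scale.

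TYMS, the thymidylate synthase, had log2 values of 8.52 and 5.26 in the Detroit subline, 9.17 and 8.88 in Detroit parent cells, 9.72 and 9.44 in the Fadu subline, and 9.25 and 9.59 in Fadu parent cells. The OECM1 values were 8.72 and 9.52 in the subline and 10.03 and 9.25 in the parent. Both Detroit subline arrays lay below every other array for TYMS. RRM1, the large reductase subunit, and TK1, the thymidine kinase of S phase, were 5.24-fold and 6.30-fold lower on Detroit subline replicate 2 than on replicate 1.

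CHAF1B, a subunit of the chaperone that puts histones on new DNA, had log2 values of 6.03 and 4.77 in the Detroit subline and 6.37 and 6.70 in Detroit parent cells. It was 5.92 and 5.85 in the Fadu subline, 5.81 and 6.14 in Fadu parent cells, 6.56 and 6.52 in the OECM1 subline, and 6.57 and 6.51 in OECM1 parent cells. The 4 OECM1 arrays were nearly level for CHAF1B, and so they were for its partner CHAF1A at 7.09 to 7.24. The low OECM1 array was thus not low for these 2 genes.

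SLBP, which binds the stem-loop of histone mRNA, had log2 values of 8.20 and 7.67 in the Detroit subline, 7.65 and 8.41 in Detroit parent cells, 8.73 and 8.59 in the Fadu subline, and 8.44 and 8.50 in Fadu parent cells. In OECM1 it was 7.73 and 8.14 in the subline and 8.97 and 7.23 in the parent. Its spread between the OECM1 parent duplicates was wider than any difference between subline and parent means.

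Between the Detroit subline duplicates the genes of the G1/S switch differed by -1.02 for CCNE1 and -0.32 for E2F1, against the median of -1.90 over the 40 genes. CCNE2 lay under the dim limit on both arrays, so no difference is given for it. E2F1, the transcription factor itself, had log2 values of 6.25 and 5.92 in the Detroit subline, 6.45 and 6.25 in Detroit parent cells, 6.35 and 6.34 in the Fadu subline, and 6.27 and 6.47 in Fadu parent cells. OECM1 had 6.30 and 6.51 in the subline and 6.32 and 6.36 in the parent. The range of E2F1 over the 12 arrays was 0.59, the narrowest of the 40 genes, whose median range was 2.46. A second probe set of E2F1, above the dim limit on all 12 arrays, differed more between the Detroit subline duplicates, by -0.83. On OECM1 subline replicate 1 it was 0.52 higher than on replicate 2, where the probe set used was 0.21 lower.

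CCNE2, a cyclin that drives entry into S phase, had log2 values of 3.54 and 3.38 in the Detroit subline, 4.73 and 5.65 in Detroit parent cells, 4.53 and 5.38 in the Fadu subline, and 4.76 and 4.34 in Fadu parent cells. OECM1 gave 3.41 and 4.06 in the subline and 5.03 and 4.03 in the parent. Both Detroit subline arrays and both OECM1 subline arrays lay under the dim limit for CCNE2, so its differences rest on weak signal. Its second probe set had 2.92 and 3.21 on Detroit subline replicates 1 and 2, also under the dim limit.

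MSH6, a subunit of the complex that finds mismatches left by the polymerases, was the other gene that passed the test in Detroit. Its log2 values were 7.74 and 6.70 in the Detroit subline and 9.15 and 9.32 in Detroit parent cells. In Fadu it was 8.07 and 7.95 in the subline and 7.41 and 8.07 in the parent, and in OECM1 7.72 and 8.30 in the subline and 8.43 and 7.76 in the parent. The Detroit parent stood above all other arrays for MSH6, and Detroit subline replicate 1 lay among the Fadu and OECM1 values.

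DTL, an adaptor of the ligase that removes CDT1 during S phase, had log2 values of 7.08 and 4.05 in the Detroit subline, 6.80 and 7.31 in Detroit parent cells, 7.06 and 7.42 in the Fadu subline, and 7.16 and 7.28 in Fadu parent cells. The OECM1 values were 6.01 and 7.86 in the subline and 8.83 and 7.07 in the parent. UNG, the glycosylase that removes uracil from DNA, was lowest on replicate 2 of the OECM1 parent, at 5.25, and highest on replicate 2 of the Fadu invasion subline, at 8.41. TIPIN, a fork protection factor, ranged from 4.72 to 6.57.

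**Figure D2:**
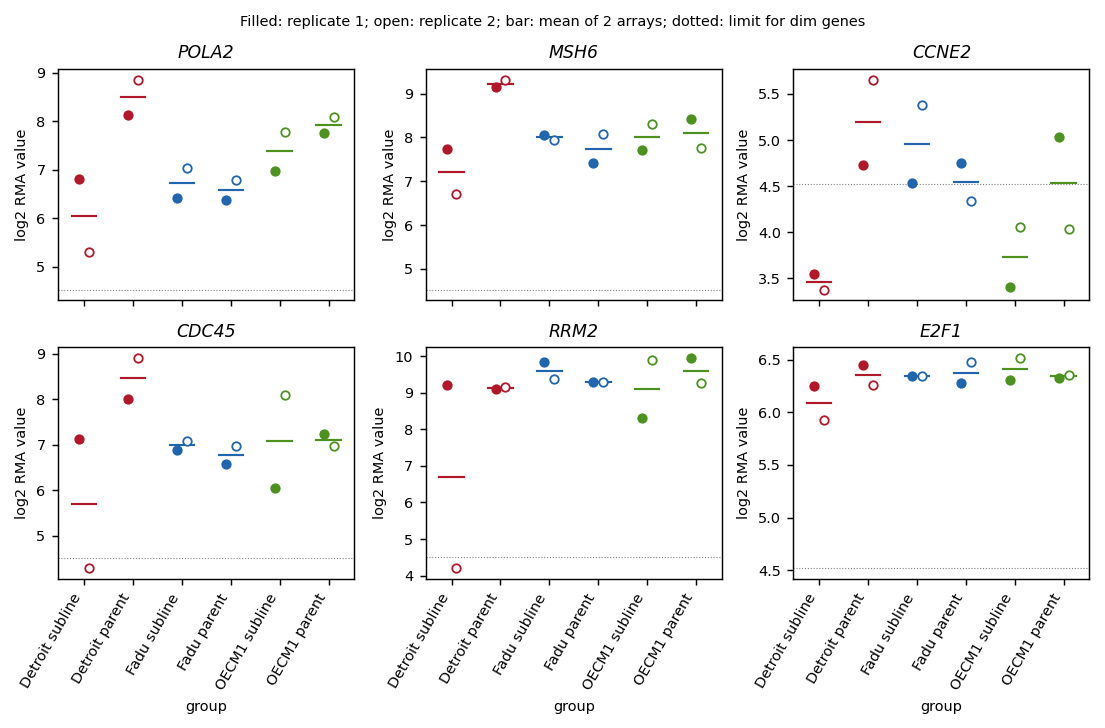
Log2 RMA values of 6 genes by group, with a filled point for replicate 1, an open point for replicate 2, a bar for the mean of 2 arrays and a dotted line at the dim limit of 4.52; the axes do not start at 0. POLA2 and MSH6 have both Detroit subline points below both Detroit parent points, RRM2 is low on 1 array alone (4.21), and E2F1 spans 0.59.

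The Detroit comparison asked which of these genes differed between the arrays labelled invasion subline and their parent. POLA2 was 5.45-fold lower in the subline and MSH6 4.02-fold lower, and the other 38 genes did not pass the test. The group means of POLA2 were 6.05 ± 1.06 and 8.50 ± 0.506 (SD, n = 2 arrays each), and the log2 difference was -2.45 (SE 0.509, adjusted p = 0.0253, limma). For MSH6 the means were 7.22 ± 0.733 and 9.23 ± 0.120 (SD, n = 2), and the log2 difference was -2.01 (SE 0.431, adjusted p = 0.0293, limma). Both genes were lower in the 2 subline arrays than in the 2 parent arrays. A second probe set of MSH6 gave -1.90. Both calls ended when arrays were weighted by their quality (adjusted p = 0.0551 for POLA2 and 0.0626 for MSH6, limma), when only the 4 Detroit arrays were fitted, with the replicate number as a block, and when either Detroit parent array or subline replicate 2 was left out.

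Called genes were thus 2 lower and 0 higher among 40, where 1.77% of all genes tested were called lower and 1.51% higher. At an unadjusted p under 0.05, 11 of 40 (27.5%) were lower and 0 higher, against 7.78% and 8.35% of all genes. Both subline arrays lay below both parent arrays for 13 genes (32.5%) and above them for 0, against 18.8% and 19.9% of all genes. The genes in these 3 counts were all lower, while the same counts over all genes tested fell about evenly on both sides. The median log2 difference of the 40 genes was -0.85, with 33 below 0 and 7 above, against -0.01 over all genes tested.

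Among the genes that missed the threshold, CDC45 had the largest log2 difference, at -2.75 (SE 0.825, adjusted p = 0.105, limma). RRM2 followed at -2.43 (adjusted p = 0.347), TYMS at -2.14 (adjusted p = 0.199) and RFC3 at -2.01 (adjusted p = 0.162), all by limma. GINS1 had the highest value, at 1.03 (adjusted p = 0.647, limma). CCNE2 came closest to the threshold, at -1.73 (adjusted p = 0.0528, limma). CDC45, RRM2 and RFC3 were under the dim limit on subline replicate 2 and CCNE2 on both subline arrays, so the sizes of these differences rest on weak signal.

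The list as a whole rested on 1 array. Against the mean of the Detroit parent arrays, subline replicate 2 had a median of -1.83, with 38 of 40 genes below 0. On that array 28 genes were at least 2-fold lower and 0 at least 2-fold higher, against 10.3% and 12.2% of all genes. Subline replicate 1 had a median of 0.13, with 5 genes at least 2-fold lower and 5 at least 2-fold higher, against 6.94% and 5.98% of all genes. POLA2, MSH6, CCNE2, CDC45 and PRIM1 were the 5 that were at least 2-fold lower on replicate 1 too, with CCNE2 under the dim limit there. Without replicate 2, limma called 0 of 40 genes, where it called 1.66% of all genes lower. Without replicate 1 it called 19 (47.5%), all lower, where 4.54% of all genes were called lower. With 1 subline array left, that array is assumed to vary like the other groups. Without replicate 2, POLA2 had a log2 difference of -1.69 (adjusted p = 0.112, limma) and MSH6 of -1.49 (adjusted p = 0.136, limma).

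**Figure D3:**
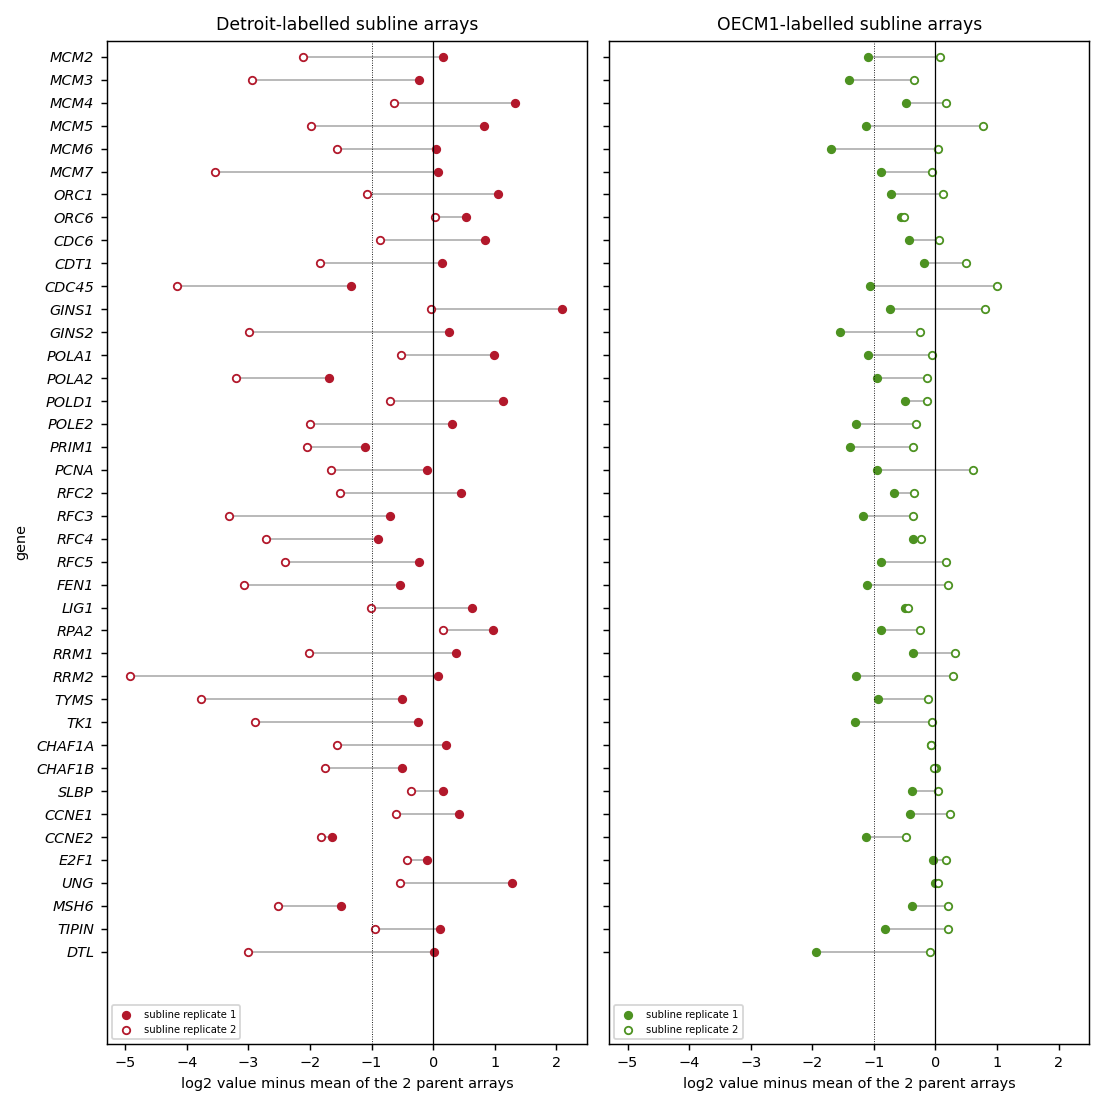
For each of the 40 genes, the log2 value of each invasion subline array minus the mean of the 2 parent arrays is plotted for Detroit on the left and OECM1 on the right, with a filled point for replicate 1, an open point for replicate 2 and a dotted line at 2-fold lower. Detroit replicate 2 lies to the left of replicate 1 for all 40 genes, and OECM1 replicate 1 lies to the left of replicate 2 for 39.

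Since the arrays labelled Detroit invasion subline resembled Fadu, they were also set against the Fadu parent. POLA2 and MSH6 then differed by -0.53 and -0.52 on the log2 scale, and neither was called. The mean of the 2 arrays lay below the Fadu parent for all 40 genes, with a median of -0.67, and 0 were called by limma, where 0% of all genes were called. This too rested on replicate 2, which had a median of -1.58 against the Fadu parent mean, with 40 of 40 genes below 0 and 34 at least 2-fold lower, against 6.79% of all genes. Replicate 1 had a median of 0.14, with 17 of 40 genes below 0 and 1 at least 2-fold lower, against 3.63% of all genes. Fitted without replicate 1, 8 genes (20.0%) were called lower, against 1.67% of all genes, and fitted without replicate 2, 0 were, as over all genes. At an unadjusted p under 0.05, 6 genes were lower and 0 higher, against 2.84% and 1.07% of all genes. Both arrays lay below both Fadu parent arrays for 15 genes (37.5%), against 14% of all genes. RRM2 (-2.60), TYMS (-2.53) and RFC3 (-1.97) had the largest log2 differences of the 2-array mean, with RRM2 and RFC3 under the dim limit on replicate 2. The means of POLA2 and MSH6 in Fadu parent cells were 6.58 and 7.74, both below those of the Detroit parent given above.

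In Fadu the differences were small and leaned higher in the invasion subline. The median log2 difference was 0.22, with 36 of 40 genes above 0, against -0.02 over all genes. The values ran from -0.30 for TK1 to 0.88 for RRM1. Limma called 0 of 40 genes, where it called 0% of all genes higher and 0.0222% lower, and at an unadjusted p under 0.05 there were 0 of 40, against 2.02% of all genes. Both subline arrays lay above both parent arrays for 14 genes (35.0%) and below them for 0, against 15.7% and 18% of all genes. The array medians of the 40 genes were 8.02 ± 0.194 in the subline and 7.62 ± 0.0552 in the parent (SD, n = 2). Against the parent mean, 0 genes were at least 2-fold higher or lower on subline replicate 1, where 1.12% and 1.53% of all genes were. On subline replicate 2, 3 genes were at least 2-fold higher and 0 lower, against 1.13% and 0.89% of all genes.

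In OECM1 the differences leaned lower in the invasion subline, with a median of -0.41 and 36 of 40 genes below 0, against 0.01 over all genes. They ran from -1.02 for DTL to 0.16 for CDT1. Limma called 0 of 40 genes and 0% of all genes, and 0 of 40 had an unadjusted p under 0.05, against 3.34% of all genes. Both subline arrays lay below both parent arrays for 12 genes, and 0 lay above, against 11.6% and 13.5% of all genes. Here too 1 array set the median. Subline replicate 1 had a median of -0.89 against the parent mean, with 15 of 40 genes, or 37.5%, at least 2-fold lower and 0 at least 2-fold higher, against 2.52% and 2.9% of all genes. Subline replicate 2 had a median of 0.01, with 0 genes past 2-fold higher or lower, against 2.28% and 0.545% of all genes.

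The difference between subline and parent was compared across the lines with an F test in the same fit. Limma called 0 of 40 genes, where it called 0.701% of all genes, and 5 had an unadjusted p under 0.05, against 8.67% of all genes. The smallest adjusted p was 0.270, for MSH6. On average over the 3 lines, with line pairs as replicates, 0 of 40 genes and 0% of all genes were called by limma, and the median was -0.36. TK1 alone had an unadjusted p under 0.05 there, with a log2 difference of -0.85, against 4.30% of all genes. These comparisons share the parents and the arrays with those above.

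The 3 parents were also compared with each other. Limma called 0 of 40 genes, where it called 5.29% of all genes, and 5 had an unadjusted p under 0.05, against 19.3% of all genes. POLA2 had the smallest adjusted p of the 40 (0.102), followed by POLA1 (0.115) and MSH6 (0.125), all by limma. POLA2 and MSH6 had their highest parent mean in Detroit, while POLA1 had its lowest there, with log2 values of 5.19 and 5.05 in Detroit parent cells against 6.33 and 6.35 in Fadu parent cells and 7.07 and 6.62 in OECM1 parent cells. For POLA1 the parents did not overlap. Fitted without the 2 arrays labelled Detroit invasion subline, POLA2 and POLA1 were called (5% of the 40 genes), where 8.15% of all genes were.

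Other genes of the same machinery and of the cell cycle were set beside the 40. Among 30 further replication genes tested, 1 was called higher in the Detroit comparison and 0 lower. The called gene was CDC7, the kinase that activates the loaded helicase, with mean log2 values of 6.51 ± 0.688 in the Detroit subline and 3.97 ± 0.262 in Detroit parent cells (SD, n = 2; difference 2.54, adjusted p = 0.0115, limma). Both Detroit parent arrays, at 3.78 and 4.15, lay under the dim limit for CDC7, and the Fadu parent had 7.03 and 6.58. DBF4, the partner of CDC7, had a difference of -1.73 (adjusted p = 0.0862, limma). POLD3, a polymerase delta subunit, had -1.62, and GMNN, the inhibitor of CDT1, had -1.45, and neither was called. In Fadu and in OECM1, 0 of the 30 genes were called.

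Of 23 further E2F target and S phase chromatin genes, 0 were called in any of the 3 line comparisons by limma. SKP2, a ligase subunit that removes cell cycle inhibitors, had the largest difference in Detroit, at -2.78 (adjusted p = 0.0591, limma). CCNA2, the cyclin of S and G2 phase, had log2 values of 8.30 and 3.68 on the Detroit subline arrays, against 7.41 and 7.89 in the parent. Of 31 G2 and mitosis genes and of 22 cell cycle brakes and G1 genes, 0 were called in the 3 line comparisons. Of 21 unfolded protein and ATF4 response genes, CRELD2, a chaperone of the endoplasmic reticulum, was called higher in Detroit, at 2.80 (adjusted p = 0.00525, limma), and 0 were called in the other lines.

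These lists separated the 2 low arrays from each other. On Detroit subline replicate 2 the 31 G2 and mitosis genes lay even lower than the replication genes, with a median of -3.09 from their own medians against -1.52. MKI67, the proliferation marker, was 8.48 on replicate 1 and 4.77 on replicate 2. On OECM1 subline replicate 1 the G2 and mitosis genes had a median of -0.04 while the 40 genes had -0.84. On replicate 2 these medians were 0.22 and -0.05, so by median the G2 and mitosis genes also lay lower on replicate 1. MKI67 went against its list, at 9.53 on replicate 1 and 8.85 on replicate 2. Further E2F target genes were low on both of the 2 low arrays, with medians of -1.45 and -0.80, and further replication genes had -0.81 and -0.29. The 22 cell cycle brakes and G1 genes had medians of -0.01 and -0.08, over genes that went both ways, from -1.83 to 1.79 on the first array and from -1.29 to 1.57 on the second. Unfolded protein and ATF4 response genes were high on both, at 1.94 and 1.65, where the other 10 arrays had medians from -0.56 to 0.46. These are single arrays and have no test, and the part of a stress response in the low values was not tested.

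**Figure D4:**
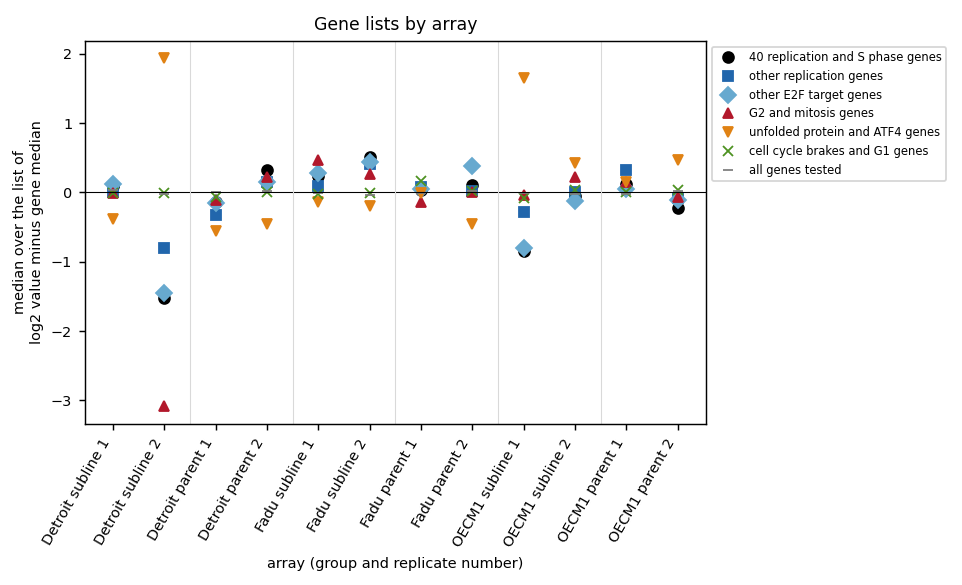
For 7 gene lists and each of the 12 arrays, the median over the list of the log2 value minus the median of that gene over the 12 arrays is plotted. The 40 genes are lowest on Detroit subline replicate 2 (-1.52) and OECM1 subline replicate 1 (-0.84), the G2 and mitosis genes are low on the first (-3.09) and near 0 on the second (-0.04), and the unfolded protein genes are highest on these arrays (1.94 and 1.65).

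The Detroit subline duplicates were also compared by list. At least 2-fold lower on replicate 2 were 30 of 31 G2 and mitosis genes (96.8%), 34 of the 40 genes (85.0%), 16 of 23 further E2F target genes (69.6%), 13 of 30 further replication genes (43.3%) and 1 of 22 cell cycle brakes and G1 genes (4.55%), against 8.32% of all genes. At least 2-fold higher were 5 of these 22 (22.7%), against 10.9% of all genes. The 5 were BTG1, RBL2, CDKN1B, GADD45A and RB1, and the lower one was TFDP1, all named after their values were seen. BTG1, which restrains proliferation, had log2 values of 6.82 on replicate 1 and 10.02 on replicate 2, and TFDP1, the partner of E2F factors, had a difference of -1.72. Of 21 unfolded protein and ATF4 response genes 18 were at least 2-fold higher. On OECM1 subline replicate 1, 5 of 31 G2 and mitosis genes and 7 of 23 further E2F target genes lay at least 2-fold below the parent mean. The share over all genes was 2.52%. At least 2-fold above the parent mean were 9 of 21 unfolded protein genes, against 2.9% of all genes.

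Further probe sets of the same genes gave a check within the arrays. The 40 genes had 60 probe sets that name 1 gene, and 25 genes had 1 each. Of the 20 further probe sets 19 passed the dim limit on at least 2 arrays. Of these 19, 17 were lower on Detroit subline replicate 2 than on replicate 1, with 14 at least 2-fold lower. On OECM1 subline replicate 1, 16 of the 19 were lower than on replicate 2. The exceptions in Detroit were the second probe set of CCNE2 and the last of RFC5. That of CCNE2 lay under the dim limit on both Detroit subline arrays. That of RFC5 was higher by 1.24 on replicate 2, with replicate 1 under the limit at 4.16.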

How the data were processed

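Total RNA from 12 samples was measured on Affymetrix arrays, 2 per group. The deposited values are log2 expression values of 22283 probe sets, made by the authors with RMA (background subtraction, quantile normalization and a summary of the probes), and Partek version 7 is also named, per the submitters' processing notes. RMA compresses low values, and no detection calls came with the table. Arrays have no read depth, and their number limits the precision. There were 0 missing values and 0 unused columns of values.

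The platform annotation named the probe sets: 19065 had 1 symbol, 1043 several and 2107 none, beside 68 controls. The gene was represented by its probe set of highest mean, and genes with at least 2 arrays above the 40th percentile of all values (log2 4.52) were kept. The 6 group means were fitted with limma 3.58.1 in R 4.3.3 (empirical Bayes, intensity trend), so that all groups share 1 estimate of the spread. Adjusted p-values are Benjamini-Hochberg values over 8992 genes, called under 0.05. The average effect came from the 6 group means, blocked by line. Steps were tested on simulated data, with 1 spread per gene for all groups and the same effect in every line. The real duplicates differed in spread between groups, and the simulation did not cover this. Symbols were matched to RefSeq promoters.

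The 40 genes, the further lists, the rule for genes given in every array (1 or 2 per role, and called genes) and the alternatives were chosen with earlier results of these data known. For the line comparisons at most 4 genes of a further list were named, called ones first and then those of largest difference. The cell cycle brakes and G1 genes were instead named by their differences between the Detroit subline duplicates. Replicate numbers were not used to pair the samples in the main fit. Over genes, differences between replicates correlated at -0.19 between the Detroit groups, -0.38 between the Fadu groups and -0.40 between the OECM1 groups. Between groups of different lines the correlations ran from -0.40, for Detroit subline and Fadu parent, to 0.31, for Detroit subline and Fadu subline. A batch shared by arrays of different groups was not tested. No arrays were left out of the main values.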

Additional observations from a re-analysis of the deposited data

Results flagged for a closer look

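In 4 of the 40 genes (10.0%) the 2 subline arrays lay outside the 2 parent arrays on opposite sides in different lines, as did 12.2% of all genes tested, and none of these differences between lines was tested by this rule. PRIM1, the primase subunit, had log2 differences of -1.58 in Detroit, 0.37 in Fadu and -0.88 in OECM1. RFC3, of the clamp loader, had -2.01, 0.44 and -0.77, and RFC4 of the same complex had -1.81, 0.55 and -0.30. GINS2, of the active helicase, had 0.25 in Fadu and -0.90 in OECM1. In the F test across lines, 0 of the 40 genes passed.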

How the results depend on the processing

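The 2 calls in Detroit were the result most open to the processing. The count of called genes was 0 with array weights, 0 with the replicate block within each line and 0 with only the 4 arrays of the line, where 1.89%, 1.31% and 0.523% of all genes were called. It was 8 (20.0%), all lower, with the crossed pairing of replicate numbers, an alternative added after the data were seen (0 in Fadu and 0 in OECM1), where 3.14% of all genes were called lower. The labels link subline and parent samples of a line by replicate number alone, and the cause of these changes was not tested. Leaving out 1 array at a time, the Detroit count ran from 0 to 19, with 19 without subline replicate 1 (4.54% of all genes lower), 0 without subline replicate 2 or either parent replicate (2.32%, 1.42% and 2.12% of all genes called), and 1 without either Fadu subline replicate (2.57% and 2.54%). The Detroit median ran from -1.83 to 0.13, the OECM1 median from -0.89 to 0.01, the Fadu median from 0.12 to 0.34 and, added after the data were seen, the median of the Detroit subline against the Fadu parent from -1.58 to 0.14. Counts ran from 0 to 8 for the Detroit subline against the Fadu parent and from 0 to 9 for the difference between lines, both highest without Detroit subline replicate 1 (1.67% of all genes lower and 2.80% called), and from 0 to 2 for the 3 parents, highest without either Detroit subline replicate (8.13% and 8.12% of all genes called). The other counts were 0 throughout. For the parents the count was 1 with array weights (5.97% of all genes) and 2 without the 2 arrays labelled Detroit invasion subline (8.15%). The adjusted p by limma of POLA2 was 0.0551 with array weights, 0.0795 with the replicate block and 0.222 with 4 arrays, and that of MSH6 was 0.0626, 0.117 and 0.231. Among other settings, CCNE2 passed with median centring (adjusted p = 0.0372, limma) and with the ACTB ratio in the fit (adjusted p = 0.0229, limma). It also passed with the crossed pairing (adjusted p = 0.00943, limma). Both Detroit subline arrays lay under the dim limit for CCNE2. No called gene changed direction under these alternatives. Of 86 main results under alternatives other than leaving out an array, 80 stayed alike by a loose rule. A count was taken as alike when equal or close to the main count, and many counts were 0 in both fits. A median was taken as alike when it moved by less than the SD between duplicates given next. In Detroit that SD was larger than the size of the median itself, -0.85. The SD between duplicates of the median of the 40 genes, pooled over the 2 groups compared, was 1.16 in Detroit, 0.143 in Fadu and 0.624 in OECM1, so the precision differed between lines.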
